A study of Mus musculus with 13 samples.

Results

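Among 115295 accessible chromatin regions measured in mouse haematopoietic stem cells (HSCs), 405 differed in mean level between P-restricted (PLT-HSC) and multilineage (MUL-HSC) cells while the PEM-restricted (PEM-HSC) level lay close to the multilineage one. They were chosen by their measured values. A region's level was its count divided by the library total, times 1000000 (CPM), and the group mean of CPM in PLT-HSC had to be at least 1.8 times or at most 0.556 times that in MUL-HSC. The PEM-HSC mean had to lie between 0.8 and 1.25 times the MUL-HSC mean, the raw count had to average at least 10 over all 13 libraries, and the sex chromosomes were left out. The mean count and chromosome criteria left 48540 regions that could have been chosen, here called eligible, of which 190 met the rule as higher in PLT-HSC and 215 as lower. Because these values made the choice, the size of the PLT-HSC difference in the 405 regions is a description and supports nothing by itself.

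The study transplanted single Vwf+ HSCs into mice and classed the recipients by the blood lineages that the donor cell restored over 16 weeks. Donor-derived (CD45.2+) HSCs without Gata1 were then sorted from C57BL/6 bone marrow by the phenotype LSK Flt3- CD150+ CD48- Gata1-, 500 cells per replicate, and profiled by Omni-ATAC-seq. The 4 MUL-HSC libraries came from multilineage recipients, the 6 PEM-HSC libraries from PEM-restricted recipients and the 3 PLT-HSC libraries from P-restricted recipients, where P is read here as platelet. All 3 groups share the donor cell type, the sort and the tissue, and the labels name no other treatment and no recipient age. The labels do not say whether replicates of a group came from separate recipients, so p-values reflect the variation among these libraries alone, part of which can be technical. Library totals ran from 1276962 to 3851165 counts, a ratio of 3.02, with 1307222 to 2831520 in MUL-HSC, 1276962 to 3851165 in PEM-HSC and 2378024 to 3307889 in PLT-HSC. All 5 libraries under 2000000 counts (MUL-HSC 1 and 2, PEM-HSC 2, 3 and 6) belonged to the groups other than PLT-HSC.

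HSCs maintain all blood lineages, but single HSCs differ in which lineages they replenish after transplantation, and some restore mainly platelets. Vwf, the gene of the platelet adhesion protein von Willebrand factor, marks a subset of HSCs biased towards platelets. In ATAC-seq a transposase cuts and tags open DNA, so the count in a region rises with the accessibility of promoters, enhancers and other regulatory elements there. In bulk samples a lower count can come from fewer cells that hold a region open or from less open chromatin per cell, and these cannot be told apart. Positions below are in mm9, as in the deposited table. Neither a genome nor an annotation of that build was used here. Regions therefore go by their coordinates, without a gene, exon or intron and without a sequence, and the labelled cell type was not checked against marker genes.

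Few of the regions past a PLT-HSC bound had a PEM-HSC mean inside the window of the rule. A PLT-HSC bound was passed by 4228 eligible regions, 2281 upwards and 1947 downwards. Of the 2281 upward regions, 190 (8.33%) had a PEM-HSC mean inside the window. Of the 1947 downward regions, 215 (11.04%) did. The median log2 ratio of PEM-HSC to MUL-HSC was 0.80 in the upward regions (interquartile range 0.56 to 1.13) and -0.76 in the downward ones (-1.03 to -0.51). Counts of regions declined from those medians through the window with no separate peak at a ratio of 1. With the same bounds turned round, 119 regions (24 higher, 95 lower) were past the bounds in PEM-HSC with PLT-HSC inside the window. Both ratios share the 4 MUL-HSC libraries and the regions were selected on one of them, so a MUL-HSC mean that is low or high by itself puts both ratios on the same side. The medians are therefore a description of the regions from which the 405 were taken, and what they would be without a shared control was not tested.

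**Figure D1:**
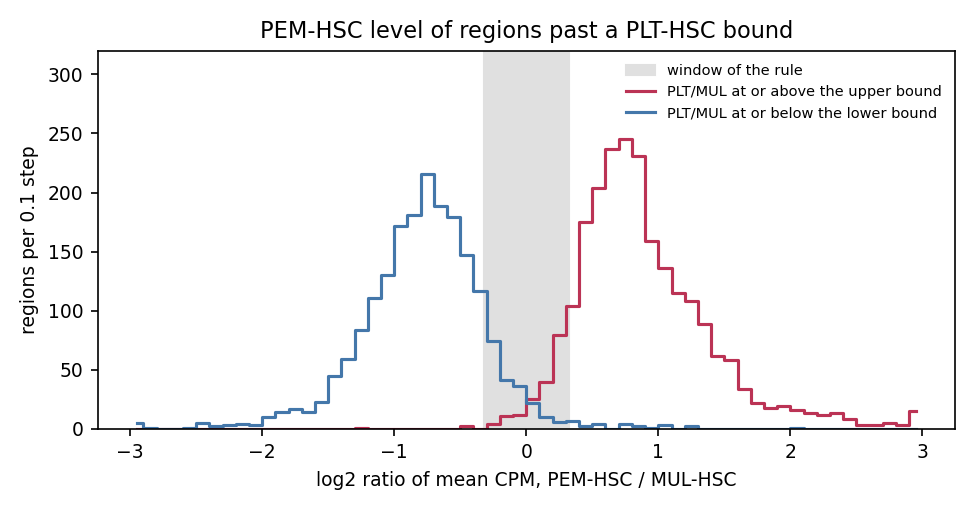
Number of eligible regions (vertical axis, per step of 0.1) by the log2 ratio of the PEM-HSC to the MUL-HSC mean CPM (horizontal axis), for the 2281 regions at or above the upper PLT-HSC bound and the 1947 at or below the lower one. The outermost steps also hold all regions beyond the axis, the shaded window holds the 405 chosen regions, and both curves slope through it from medians of 0.80 and -0.76.

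The chosen regions were thinly counted. Their median mean count was 14.8 per library, against 25.2 in all eligible regions, and 73.1% of them averaged under 20 counts, against 39.7% of eligible regions. The share of eligible regions chosen was 1.70% at a mean count of 10 to 15, 1.26% at 15 to 20, 0.633% at 20 to 50, and 0.0601% (8 regions) at 50 or more. Chosen regions were narrower, with a median width of 639 bp (206 to 1938 bp) against 755 bp. Their counts also varied more within groups than those of eligible regions. Thinner counts raise such variation by counting error, and eligible regions of like count were not compared. The median coefficient of variation (SD as a percent of the mean) was 35.3% over MUL-HSC, 36.7% over PEM-HSC and 32.5% over PLT-HSC libraries, against 22.8%, 23.2% and 18.9% in eligible regions. The ratio of PLT-HSC to MUL-HSC ran from 1.8 to 3.24 in the regions chosen as higher (median 1.93) and from 0.0208 to 0.556 in those chosen as lower (median 0.508). The chosen share per chromosome ran from 0.592% of eligible regions on chromosome 6 to 1.16% on chromosome 13, with members on all autosomes. On chromosome X, which the rule leaves out, 3 regions higher and 10 lower of 1031 would have met the same bounds, 1.26%.

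The bounds did not separate the chosen regions from those beside them. Just inside the upper bound lay chr7:82966302-82967205, with mean levels of 3.49 CPM in MUL-HSC, 3.02 CPM in PEM-HSC and 6.28 CPM in PLT-HSC, and chr9:20565205-20565792, with 6.43, 7.68 and 11.6 CPM in the same order. Just outside it lay chr2:12215670-12216168, with 4.45, 5.43 and 8.005 CPM, and chr4:133039967-133040668, with 5.04, 6.27 and 9.06 CPM. At the lower bound, chr14:70983154-70984073 (10.5, 11.2 and 5.84 CPM) and chr17:67148740-67148962 (13.3, 10.9 and 7.38 CPM) lay just inside, and chr11:62047318-62047881 (4.89, 4.45 and 2.72 CPM) and chr17:78332315-78333091 (12.3, 10.8 and 6.82 CPM) just outside.

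The rule asked that the number of regions be set against relabelled libraries, which is given here as a description. The same rule was applied to every assignment of the 13 libraries to groups of 4, 6 and 3, 60060 in all. Assignments other than the labelled one gave a median of 417 regions (interquartile range 303 to 619, range 115 to 2869), and 31491 of them (52.4%) gave at least the 405 found with the labels. The 190 higher regions were reached by 22.5% of the other assignments, whose median was 106, and the 215 lower regions by 73.3%, whose median was 299. The number also moved with depth. Assignments ordered by the summed total of the 3 libraries in the PLT-HSC place gave medians of 596, 420, 365 and 308 regions from the shallowest to the deepest of 4 equal parts. The labelled assignment, whose 3 libraries hold 8986367 counts, was in the deepest part, in which 29.8% of assignments gave at least 405. With the 3 PLT-HSC libraries kept and the other 10 assigned to groups of 4 and 6 in the 209 other ways, the median was 783 regions (277 to 1001), and 201 of the 209 gave at least 405.

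**Figure D2:**
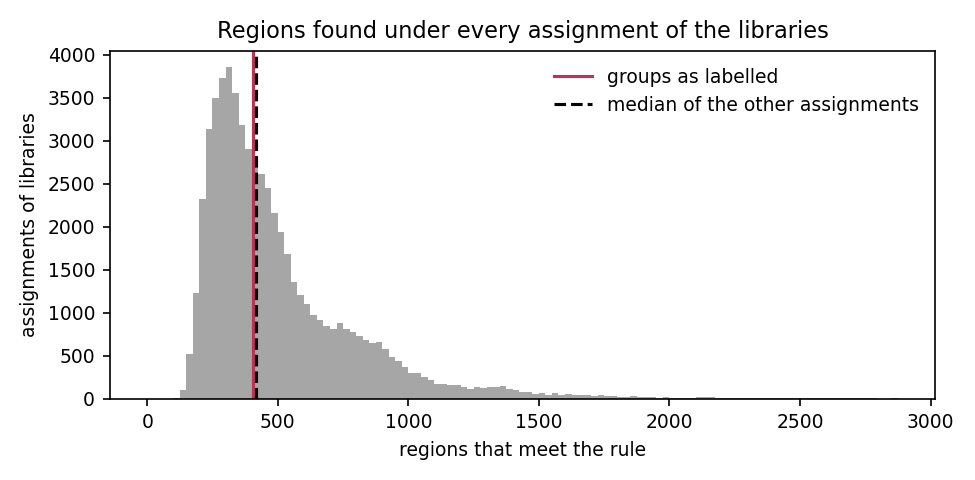
Number of assignments of the 13 libraries to groups of 4, 6 and 3 (vertical axis) by the number of regions that then met the rule (horizontal axis, steps of 25). The solid line marks the 405 regions under the labelled groups and the dashed line the median of 417 under the other assignments.

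The same rule was also applied to fewer libraries, and the regions it then found were measured in libraries that had no part in their choice. There they kept a smaller difference from MUL-HSC and lay, by the median, at about the PEM-HSC level. These sets were chosen anew for each combination and differ from the set chosen from all libraries, which was not itself measured in this way. For each of the 72 combinations of 1 PLT-HSC, 1 MUL-HSC and 1 PEM-HSC library, the rule was applied without those 3 libraries and the regions it found, a median of 690.5 (512 to 1104), were measured in the 3 held-out ones. Ratios were taken as log2 after adding 0.5 to each count, and signed so that a positive value is the direction of choice. In the libraries that chose the regions, the median signed log2 ratio of PLT-HSC to MUL-HSC was 0.99. In the held-out libraries it was 0.32 (range over combinations 0.11 to 0.57), against 0.0099 for the unsigned ratio over all eligible regions, and 65.5% of regions kept the chosen direction. Over all eligible regions, 51.0% lay above and 49.0% below the held-out MUL-HSC library in the same way.

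The held-out PEM-HSC library lay on the same side of MUL-HSC as the held-out PLT-HSC library. Its median signed log2 ratio to the held-out MUL-HSC library was 0.28 (0.0027 to 0.70) and lay above 0 in all 72 combinations, although the rule had held the PEM-HSC mean near that of MUL-HSC. The held-out PLT-HSC library differed from the held-out PEM-HSC library by a median signed log2 ratio of 0.015 (-0.22 to 0.31), above 0 in 40 of the 72 combinations, and 50.8% of regions kept the chosen direction. Regions chosen as higher had a held-out ratio of PLT-HSC to PEM-HSC of 0.10 (-0.27 to 0.50), above 0 in 50 of the 72 combinations. Regions chosen as lower had one of -0.028 (-0.31 to 0.25), below 0 in 38 of the 72. The signed median depended on the library held out, from -0.098 with PEM-HSC 5 to 0.16 with PEM-HSC 6. With PLT-HSC 1, 2 and 3 held out in turn it was 0.12, -0.0044 and -0.011. The combinations overlap, and both ratios to MUL-HSC share the held-out MUL-HSC library, so these are descriptions without a p-value. In the libraries left out, the difference between PLT-HSC and PEM-HSC took both signs over combinations, in both directions of choice. Its range over overlapping combinations is not a sampling error. These values therefore do not test whether the regions chosen from all libraries differ between PLT-HSC and PEM-HSC. The regions are called here by the rule that picked them and not by a group in which they changed.

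**Figure D3:**
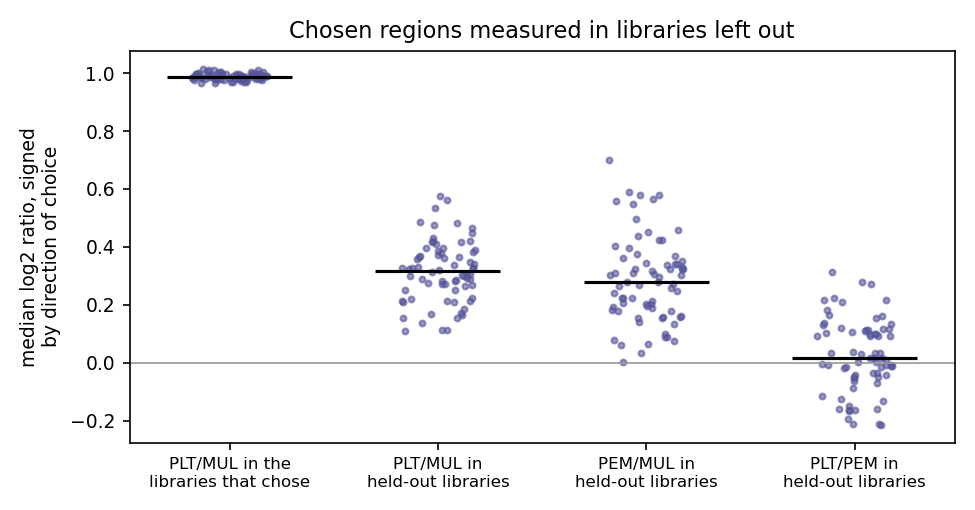
Median log2 ratio, signed by the direction of choice (vertical axis), for each of the 72 overlapping combinations of held-out libraries (points), with the median over combinations as a line. The regions were chosen anew for each combination. The ratio of PLT-HSC to MUL-HSC went from 0.99 in the libraries that chose the regions to 0.32 in those left out, where PEM-HSC lay at 0.28 above MUL-HSC and PLT-HSC at 0.015 above PEM-HSC.

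The levels of single libraries in the chosen regions are given as a description, since all 13 libraries shaped the choice and the distance of PLT-HSC from the others is fixed by it. Each library was set against the mean of the other MUL-HSC and PEM-HSC libraries, region by region. Over the regions chosen as higher, the median ratio was 1.86, 2.10 and 1.54 in PLT-HSC 1, 2 and 3. Among the other libraries it was highest in PEM-HSC 5, at 1.32, and lowest in MUL-HSC 1 and 2, at 0.786 and 0.805. Over the regions chosen as lower, it was 0.472, 0.507 and 0.557 in PLT-HSC 1, 2 and 3, 0.784 in PEM-HSC 5, 1.21 in MUL-HSC 2 and 1.16 in PEM-HSC 6. In these values PEM-HSC 5 was the library closest to PLT-HSC and PLT-HSC 3 the PLT-HSC library closest to the other groups, in both directions.

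**Figure D4:**
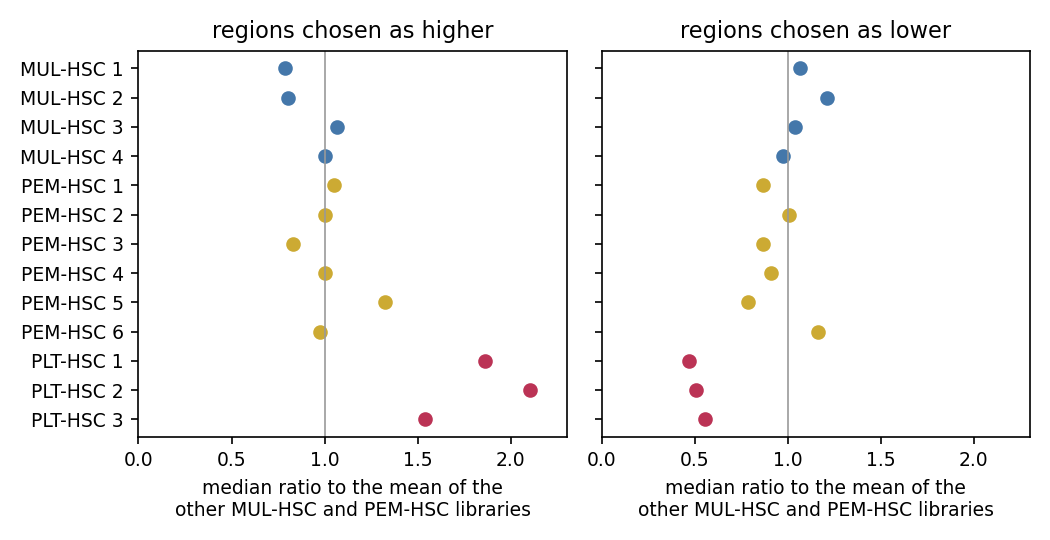
Median ratio of each library to the mean of the other MUL-HSC and PEM-HSC libraries (horizontal axis) over the 190 regions chosen as higher (left) and the 215 chosen as lower (right), 1 point per library. All 13 libraries shaped the choice, which sets the PLT-HSC libraries apart, and PEM-HSC 5 lies at 1.32 and 0.784.

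Accessibility was compared across all regions by edgeR's quasi-likelihood test in 1 fit of all 13 libraries, with Benjamini-Hochberg adjustment over the 59408 regions that passed a filter on low counts. All 405 chosen regions passed it. The choice and the fit used the same counts, so the calls describe the regions and nothing is read from their shares. Against the mean of MUL-HSC and PEM-HSC, 7 of the 190 higher regions and 4 of the 215 lower regions had an adjusted p under 0.05, where 0.197% and 0.104% of all tested regions were called higher and lower. Against MUL-HSC alone, 9 and 18 were called, where 1.13% and 1.28% of all tested regions were. Against PEM-HSC alone, where the rule also fixes the direction, 0 of the 405 were called by edgeR and 0 by DESeq2, and 0.00168% of all tested regions were called by edgeR. At an unadjusted p under 0.05 the PEM-HSC comparison held 241 of the 405 by edgeR, where 4.61% of all tested regions were under it, and 188 by DESeq2, where 2.86% were. The median fitted log2 difference from the mean of the other groups was 0.83 in the higher regions and -0.90 in the lower ones, with median standard errors of 0.32 and 0.35, against 0.0066 over all tested regions. All 3 PLT-HSC libraries lay above all 10 others in 31 of the 190 higher regions, where 0.595% of eligible regions did so, and below all 10 in 30 of the 215 lower regions, where 0.309% did.

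Of the 7 regions called higher, 3 showed no overlap between PLT-HSC and the 10 other libraries. At chr11:9797084-9797588 the levels were 12.4, 14.3 and 13.6 CPM in PLT-HSC, 4.05, 7.65, 5.48 and 2.83 CPM in MUL-HSC, and 1.16 to 7.58 CPM (median 5.86) in PEM-HSC. All 3 PLT-HSC libraries were above all others, and the log2 difference from the mean of the other groups was 1.42 ± 0.29 (SE; edgeR adjusted p = 0.0278, and 0.0103 to 0.130 over the other settings tried). At chr4:140869864-140870207 the levels were 10.9, 11.8 and 6.36 CPM in PLT-HSC, 3.47, 3.82, 1.37 and 4.24 CPM in MUL-HSC, and 1.05 to 5.19 CPM (median 3.74) in PEM-HSC. The groups did not overlap there, although PLT-HSC 3 lay nearer to the other groups than to PLT-HSC 1 and 2. At chr8:122202087-122202788 the levels were 8.77, 8.83 and 9.39 CPM in PLT-HSC, 3.47, 4.59, 2.74 and 3.18 CPM in MUL-HSC, and 1.56 to 6.98 CPM (median 2.91) in PEM-HSC. Again PLT-HSC stood above every other library, on 81 counts in all 3 PLT-HSC libraries together.

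In the other 4 regions called higher the groups overlapped by 1 or more PEM-HSC libraries. The region with the smallest p, chr9:48531376-48532493, had 30.8, 15.1 and 25.5 CPM in PLT-HSC, 11.6, 12.2, 6.40 and 10.9 CPM in MUL-HSC, and 8.53 to 18.8 CPM (median 10.2) in PEM-HSC. Its highest PEM-HSC library exceeded PLT-HSC 2, and the log2 difference was 1.14 ± 0.21 (SE; edgeR adjusted p = 0.0144, and 0.00557 to 0.259 over the other settings). The most strongly counted higher region was chr5:31770080-31770766, with 38.4, 38.7 and 30.3 CPM in PLT-HSC, 15.6, 22.2, 19.2 and 20.8 CPM in MUL-HSC, and 17.9 to 31.9 CPM (median 22.6) in PEM-HSC. PEM-HSC 5, at 31.9 CPM, was above PLT-HSC 3 there. At chr10:99487961-99488679 the PLT-HSC levels were 6.05, 12.2 and 11.5 CPM, the MUL-HSC levels 2.31, 4.59, 4.11 and 2.47 CPM, and the PEM-HSC levels 1.73 to 7.37 CPM (median 2.48). PEM-HSC 1 held that highest PEM-HSC value, above PLT-HSC 1. At chr13:13529530-13531160 the PLT-HSC levels were 19.0, 23.1 and 11.8 CPM, the MUL-HSC levels 9.26, 6.12, 9.60 and 8.12 CPM, and the PEM-HSC levels 6.59 to 12.6 CPM (median 10.2), so that PLT-HSC 3 fell within the PEM-HSC range. Next by p, and not called, chr10:36226265-36227657 had 16.9, 15.1 and 13.9 CPM in PLT-HSC against 6.88 to 9.84 CPM in MUL-HSC and 4.62 to 10.98 CPM in PEM-HSC, without overlap (edgeR adjusted p = 0.0533, and 0.0269 to 0.348 over the other settings).

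Of the 4 regions called lower, 3 showed no overlap. At chr15:84343048-84343872 the levels were 5.14, 8.83 and 9.09 CPM in PLT-HSC, 15.05, 19.9, 21.9 and 15.5 CPM in MUL-HSC, and 11.7 to 18.5 CPM (median 14.96) in PEM-HSC. The log2 difference from the mean of the other groups was -1.11 ± 0.22 (SE; edgeR adjusted p = 0.0156, and 0.0101 to 0.234 over the other settings). At chr16:87661274-87662233 the levels were 2.42, 2.10 and 1.82 CPM in PLT-HSC, 5.79, 11.5, 7.77 and 6.36 CPM in MUL-HSC, and 4.59 to 9.82 CPM (median 6.27) in PEM-HSC. It had the lowest PLT-HSC level of the 4, on 19 counts over the 3 PLT-HSC libraries, and a log2 difference of -1.75 ± 0.35 (SE; edgeR adjusted p = 0.0202, and 0.0131 to 0.120 over the other settings). At chr3:87546502-87547068 the levels were 10.3, 8.83 and 4.54 CPM in PLT-HSC, 15.6, 13.01, 29.2 and 22.6 CPM in MUL-HSC, and 13.2 to 25.8 CPM (median 14.9) in PEM-HSC. The 10 other libraries were all above PLT-HSC there, and MUL-HSC 2 lay nearest to it. The fourth, chr2:177282426-177283503, was the most strongly counted of all 405, with 22.1, 28.6 and 30.9 CPM in PLT-HSC, 60.2, 49.0, 41.1 and 50.9 CPM in MUL-HSC, and 30.2 to 61.1 CPM (median 40.4) in PEM-HSC. Its lowest PEM-HSC library lay below PLT-HSC 3.

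The next 4 lower regions by p were not called and also showed no overlap. They were chr3:69726771-69727686 (2.10 to 5.14 CPM in PLT-HSC, at least 6.02 CPM elsewhere), chr2:128102141-128102586 (2.42 to 4.21 against at least 4.67 CPM), chr11:114826516-114827246 (2.42 to 5.47 against at least 5.79 CPM) and chr5:36302848-36303403 (1.26 to 3.33 against at least 3.47 CPM). Their edgeR adjusted p ran from 0.0502 to 0.0728. None of the 11 called regions kept an adjusted p under 0.05 in every one of up to 19 other settings, and 0 of them changed direction. The call was lost in 1 of 19 settings at chr15:84343048-84343872 and in 13 of 18 at chr8:122202087-122202788. At the latter the edgeR adjusted p was 0.0498, and 0.0251 to 0.262 over the other settings. It was lost in 12 of 19 at chr13:13529530-13531160 and 11 of 18 at chr10:99487961-99488679.

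Which regions met the rule depended on single libraries. Leaving out each library in turn gave 386 to 803 regions, and 14 of the 405 (3.46%), 7 higher and 7 lower, met the rule under all 13 omissions. Those 14 include 5 of the 7 regions called higher (on chromosomes 4, 8, 9, 10 and 11, above) and 0 of the 4 called lower. The other higher regions among them are chr6:7610749-7612010 and chr11:20132082-20132419. The lower ones are chr2:106489934-106490817, chr4:103383757-103384443, chr4:117165845-117166146, chr10:82417804-82418231, chr10:98690710-98691568, chr8:126111986-126112266 (in the chromosome 8 run below) and chr7:150481472-150482800. The last had 0, 0 and 122 counts in PLT-HSC 1, 2 and 3, so meeting the rule under all omissions does not mean a like level in the 3 libraries. The calls and the omissions also use the same counts. At chr6:7610749-7612010 the PLT-HSC levels of 10.3, 12.6 and 9.39 CPM were all above the 3.13 to 7.85 CPM of the 10 other libraries. Of the 405, omitting 1 MUL-HSC library kept 240, 186, 209 and 226 (without MUL-HSC 1, 2, 3 and 4), omitting 1 PLT-HSC library kept 262, 259 and 312 (without PLT-HSC 1, 2 and 3), and omitting 1 PEM-HSC library kept 299 to 348. The number that met the rule was 803 without PLT-HSC 3 and 643 without PLT-HSC 2. With group medians in place of means, 596 regions met it, 189 of them among the 405. Leaving out the 5 libraries under 2000000 counts together, an alternative chosen after seeing the data, gave 611 regions, 96 of them among the 405.

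How counts in the chosen regions followed library depth is given as a description, since the same MUL-HSC and PEM-HSC counts made the choice. The slope of log2 count on log2 library total over the 10 MUL-HSC and PEM-HSC libraries was 1.02 in the median eligible region, where 1 means that counts scale with depth. The median was 1.22 in the higher regions and 0.82 in the lower ones. The mean CPM of the 5 libraries under 2000000 counts was 0.829 times that of the 5 deeper MUL-HSC and PEM-HSC libraries in the median higher region and 1.12 times in the median lower region, against 0.985 in eligible regions. A slope under 0.5 occurred in 26.0% of the lower regions and 3.98% of eligible regions. A choice by the MUL-HSC and PEM-HSC means can itself shift these slopes and ratios, so nothing is read from their distance from eligible regions. How far the choice alone shifts them was not tested. All 3 PLT-HSC libraries were above 2000000 counts. The part of depth in the choice of these regions was not tested beyond the omission of the shallow libraries above.

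A run of regions on chromosome 8, noticed after its values were seen, held 5 of the lower regions. Between chr8:126062361 and chr8:126148009 the table lists 53 regions, with a median distance between starts of 1698.5 bp and 33 of 52 distances between 1600 and 1800 bp. The 5 are chr8:126064101-126064811, chr8:126086295-126086886, chr8:126087942-126088321, chr8:126111986-126112266 and chr8:126133803-126134301, and 3 of them are among the 6 lower regions that averaged at least 50 counts. At chr8:126133803-126134301 the levels were 24.5, 31.5 and 23.3 CPM in PLT-HSC, 57.3, 68.1, 36.6 and 30.4 CPM in MUL-HSC, and 30.6 to 81.4 CPM (median 36.1) in PEM-HSC. The 4 highest levels stood in MUL-HSC 1 and 2 and PEM-HSC 2 and 6, all under 2000000 counts. Summed over the 53 regions, counts were 3839 to 5758 per library while totals spanned 3.02-fold, and the median slope of count on total was 0.058. As CPM the sum was 1316.5, 1730 and 1326.5 in PLT-HSC 1, 2 and 3, and 1498, 1487 and 1397 in MUL-HSC 4, PEM-HSC 4 and PEM-HSC 5. In the other MUL-HSC and PEM-HSC libraries it was 1754 to 4509. In all 53 regions the mean CPM in PLT-HSC was below that in MUL-HSC (0.470 to 0.741 times, median 0.635), and PEM-HSC lay at a median of 1.05 times MUL-HSC. The 53 regions share these libraries and totals and are not separate observations. What sets the counts of this run was not tested.

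Some chosen regions were on in some libraries of a group and near 0 in others. A library with at most 1 count beside another library of its group with at least 30 occurred in 14 of the 190 higher regions (7.37%) and 9 of the 215 lower ones (4.19%), against 0.723% of eligible regions. A choice by group means of these same counts can itself favour regions where a few libraries move a mean. Nothing is therefore read from the distance of these shares from eligible regions, and eligible regions of like count were not compared. The most strongly counted of them, chr7:150481472-150482800, was chosen as lower and had 0 counts in PLT-HSC 1 and 2, which allows up to 0.907 and 1.26 CPM (3 counts of the total; counting error only). PLT-HSC 3 had 122 counts there, 37.0 CPM, within the 30.6 to 48.5 CPM of the 10 other libraries. The listed region next to it on the left, chr7:150471322-150471879, 9593 bp away, had 16, 6 and 16 counts in PLT-HSC 1, 2 and 3. The one next to it on the right, chr7:150535735-150536073, 52935 bp away, had 4, 6 and 4. The stretch between these neighbours was not tested. At chr1:183851616-183852550, the chosen region with the smallest ratio of PLT-HSC to MUL-HSC (0.0208), MUL-HSC 1 and 2 had 17.4 and 20.7 CPM and PEM-HSC 2 and 6 had 29.8 and 38.7 CPM. All 9 other libraries, PLT-HSC included, held at most 3 counts there. Those 4 libraries with the higher levels are all under 2000000 counts in total, but PEM-HSC 3, also under that total, held 1 count there. Among those chosen as higher, chr8:108485099-108485780 had 10.3, 24.4 and 34.8 CPM in PLT-HSC, 1.41 to 12.8 CPM in MUL-HSC and 0.388 to 17.9 CPM in PEM-HSC. In such regions a group mean rests on which libraries are on. These regions were singled out after their values were seen, and why a library was on or off was not tested.

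**Figure D5:**
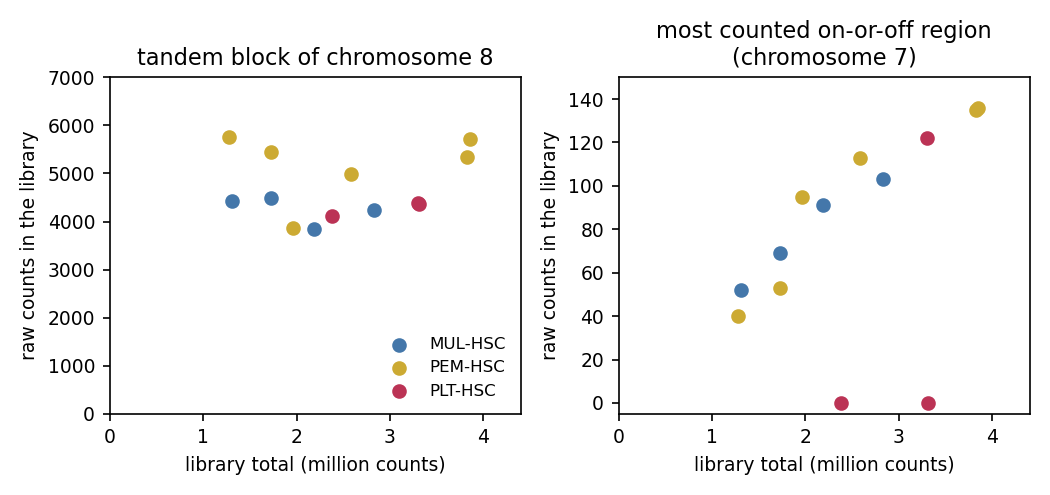
Raw counts (vertical axes) against the library total in units of 1000000 counts (horizontal axes), 1 point per library and colours for the groups, for the sum of the 53 regions of the chromosome 8 run (left; PLT-HSC 1 and 3 nearly coincide) and for chr7:150481472-150482800 (right). Counts on the left stay between 3839 and 5758 whatever the total, while those on the right grow with the total except in the 2 PLT-HSC libraries at 0.

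Within 50 kb of one another there were 8 pairs of chosen regions next to each other, 5 of them both lower, 1 both higher and 2 of opposite direction, and 4 of the 5 lower pairs belong to the chromosome 8 run. The higher pair, chr11:90408548-90408984 and chr11:90409790-90410386, lay 806 bp apart, with mean levels of 7.34 and 13.8 CPM in PLT-HSC against 3.69 and 7.31 CPM in MUL-HSC. In a pair of opposite direction, chr9:81519390-81520108 was chosen as higher (14.6 CPM in PLT-HSC, 6.77 CPM in MUL-HSC) and chr9:81525215-81525634, 5107 bp away, as lower (3.82 and 7.35 CPM). The nearest eligible region within 20 kb that was not chosen differed from MUL-HSC in the same direction beside 83 of 141 higher regions (58.9%) and 88 of 151 lower regions (58.3%), where 52.6% and 47.4% of eligible regions lay that way. The median log2 ratio of PLT-HSC to MUL-HSC in those neighbours was 0.026 beside higher regions and -0.11 beside lower ones, against 0.020 over eligible regions. For PEM-HSC to MUL-HSC it was 0.047 and -0.053 in the same neighbours. Both ratios share the MUL-HSC libraries that made the choice, so these values are a description.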

How the data were processed

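Omni-ATAC-seq counts of 13 libraries (4 MUL-HSC, 6 PEM-HSC, 3 PLT-HSC) were used as deposited by the authors: raw counts, whole numbers per region and library, for 115295 regions. The submitters' processing notes list MACS2, Picard, SAMtools, Bowtie2, FastQC and Trim Galore and the build mm9. Versions, settings, the counting tool, duplicate removal, any shift of read ends, pooling for peak calls and the base from which starts count remain not given in the sources used here. Regions called mainly in deep libraries, or repeated sequence counted from ambiguous reads, could move low counts.

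CPM used column totals. Counts were tested in R 4.3.3 with edgeR 4.0.16 (filterByExpr by group, 59408 regions holding 91.4% of counts, TMM, robust quasi-likelihood fit, two-sided tests; biological coefficient of variation 15.6%), with DESeq2 1.42.0 as an alternative. A standard error is the log2 fold change over the square root of F. The scripts were tested on simulated data. Intervals allowed by 0 counts cover counting error only, since reads are not independent molecules. Replicates of each group differed beyond sampling noise (chi-square per degree of freedom 1.43 to 2.54 over 24 pairs), so none was counted once.

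Regions named are, per direction, the 8 with the smallest p against the mean of the other groups, the 2 with the highest mean CPM, and the 2 just inside and the 2 just outside the bound; others were named after their values were seen, among them those kept under all omissions, the on-or-off regions, the chromosome 8 run and the close pairs. The rule, lists and tests were chosen with earlier results of these data known. Alternatives were other filters, scalings, bounds, DESeq2, a replicate block and leaving out libraries. Gene lists and motifs were not used, since no mm9 genome or annotation was used. No column of the table was left out.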

Additional observations from a re-analysis of the deposited data

Results flagged for a closer look

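Among 58 sets of values (a named region, the chromosome 8 run or a median ratio per library, each in a group of 4 or 6 libraries), 3 had a highest library far from the others of its group by Dixon's 95% critical value, and chance marks about 1 in 20. At chr9:20565205-20565792, just inside the upper bound, MUL-HSC 3 had 12.3 CPM and the other MUL-HSC libraries 3.83 to 4.94 CPM. At chr11:62047318-62047881, just outside the lower bound, MUL-HSC 3 had 9.14 CPM and the others 3.06 to 3.88 CPM. At chr3:69726771-69727686, MUL-HSC 4 had 9.89 CPM and the others 9.14 to 9.26 CPM, a small distance within a tight group.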

How the results depend on the processing

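The number of regions that met the rule was 405, and 408 on TMM-scaled totals. It was 109 with a mean count of at least 20, 8 with at least 50, 167 with PLT-HSC bounds of 2 and 0.5, 144 with a PEM-HSC window from 0.9 to its inverse, 596 with group medians, and 611 without the 5 libraries under 2000000 counts (chosen after seeing the data). Leaving out each library gave 386 to 803, with 643 without PLT-HSC 2 and 803 without PLT-HSC 3. Calls among the 405 against the mean of the other groups were 11, of 179 among all tested regions. DESeq2 gave 7 of 143, a mean count of at least 20 gave 5 of 59, no robust estimation 4 of 108, no filter 13 of 349 and scaling to column totals 11 of 169. Leaving out each library gave 1 to 31 of these calls: 4, 6 and 4 without MUL-HSC 1, 2 and 4 (71, 106 and 86 over all regions), 21 and 5 without PEM-HSC 5 and 6 (352 and 124), and 1, 2 and 31 without PLT-HSC 1, 2 and 3 (15, 55 and 548). Calls over all tested regions moved in the same direction as those among the 405 in these omissions. Against MUL-HSC the 27 calls became 14 with DESeq2 and 15 with a mean count of at least 20, and 5 to 52 when each library was left out: 12, 11 and 6 without MUL-HSC 1, 2 and 4, and 5, 10 and 52 without PLT-HSC 1, 2 and 3 (1431 over all regions with every library, and 350, 609 and 2034 without those 3 in turn). Against PEM-HSC the 0 calls became 2 without PLT-HSC 3 (range 0 to 2), of 11 over all regions. The cause was not tested, except that fewer regions can pass a higher count minimum or tighter bounds. The held-out log2 ratio of PLT-HSC to MUL-HSC, 0.32, was 0.31 (0.064 to 0.58) on TMM-scaled totals. With mean counts of at least 20 and 50 it was 0.37 and 0.35, but its range over combinations crossed 0 (-0.078 to 0.72 and -0.18 to 0.99, on as few as 107 and 8 regions). The held-out ratio of PLT-HSC to PEM-HSC, 0.015, was 0.022, 0.037 and 0.093 in the same order.

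With a replicate block, 16, 2 and 20 of the 405 were called against the mean of the other groups, PEM-HSC and MUL-HSC, of 159, 9 and 682 over all tested regions (179, 1 and 1431 without the block). Deviations from group means correlated by -0.15 to 0.089 between same-numbered samples (10 pairs) and by -0.18 to 0.22 between the others. So few pairs, centred within small groups, cannot settle whether same-numbered samples were paired or shared a batch.

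At a median mean count of 14.8 per library, counting error limits what any single one of these regions can show.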
